A study of Homo sapiens with 6 samples.

Results

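The replication-dependent histone cluster genes were taken as every gene of the deposited table whose symbol starts with HIST1H, HIST2H, HIST3H or HIST4H. This gave 74 of 27945 genes: 6 linker histone H1 genes, 18 H2A, 20 H2B, 15 H3 and 15 H4 genes. The table lists 71 of them as protein-coding and 3 as pseudogenes. By locus, 56 belonged to HIST1 on chromosome 6, 14 to HIST2 on chromosome 1, 3 to HIST3 and 1 to HIST4.

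RNA was sequenced from HaCaT cells, a line of immortalized human keratinocytes, in 6 libraries. Wild-type (WT) cells gave 1 library after 4 h of PBS (unstimulated) and 2 after 4 h of IL-1α in PBS, and p38α-knockout cells, labelled MAPK14-null, gave the same numbers. IL-1α is an inflammatory cytokine and p38α a stress-activated kinase. Neither the edit in MAPK14 nor the number of knockout clones was given, and nothing said whether replicates came from separate cultures, so p-values measure only the spread between these libraries.

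Replication-dependent histone genes are switched on in S phase, when new DNA has to be packed into nucleosomes, and their mRNAs are removed when replication ends. Most of these mRNAs end in a conserved stem-loop, bound by the protein SLBP, in place of a poly(A) tail, and each class is encoded by many intronless copies. The libraries were made with a stranded mRNA kit that selects RNA by its poly(A) tail, so histone transcripts without a tail are poorly captured, while forms that run past the stem-loop to a polyadenylation signal can be captured.

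The stem-loop and the promoter motifs are shown first, because they were more frequent in the class than over all genes and differed between its members. Written as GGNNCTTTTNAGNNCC on the transcript strand, the stem-loop pattern was present in a GENCODE release 29 transcript of 32 of 74 members, against 80 of all 58721 genes (0.136%). Of the 42 members without it, 33 had only transcripts that hold coding sequence alone, in which it could not have been seen. The form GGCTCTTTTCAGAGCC was the most frequent, in 17 members. The sites of the 6 most abundant members with the pattern follow, with the stem-loop in capitals and 7 bases of transcript on each side.
HIST1H2BD: tcccaaaGGCTCTTTTAAGAGCCacgcatg
HIST1H2AC: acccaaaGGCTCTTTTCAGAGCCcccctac
HIST3H2A: acataaaGGCTCTTTTCAGAGCCacctact
HIST2H2BE: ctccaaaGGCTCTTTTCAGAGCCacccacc
HIST1H2BH: acccaaaGGCTCTTTTCAGAGCCacttaat
HIST1H2AE: aaccaaaGGCTCTTTTCAGAGCCacccacc
HIST1H2BD carried the form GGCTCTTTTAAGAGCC, found in 5 members, and the other five shared the most frequent form. The bases that flank the stem-loop differed from gene to gene.

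An annotated transcript ran at least 100 bases past the stem-loop in 23 of these 32 members, and in 16 of the 23 the last 40 bases of such a transcript held AATAAA or ATTAAA, the usual polyadenylation signals. For the genes just shown, the longest transcript went on for 1128 bases in HIST1H2AC, 390 in HIST3H2A, 1729 in HIST2H2BE and 1640 in HIST1H2BH, but for 39 in HIST1H2BD and 51 in HIST1H2AE. Of the 23 members with such an extended transcript, 12 reached a level of 1 RPKM in at least 1 library. Among the 9 with the pattern and no extension 2 did, and among the 42 without the pattern 7 did. These counts describe an annotation that is itself built in part from polyadenylated transcripts.

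Promoters were taken from RefSeq (GRCh38.p14) as 300-base windows, 250 bases before to 50 after the start, of which 70 matched 66 members. The octamer ATTTGCAT, a binding motif of the POU factor OCT1 and known in H2B promoters, was found on either strand in 38.6% of them, against 1.77% of all 35116 promoters. CCAAT, a motif of NF-Y, stood on either strand in 85.7% against 34.6%, and TATAAA on the gene's strand in 58.6% against 7.33%. By class, the octamer was found in 15 of 20 H2B and 11 of 16 H2A promoters, in 1 of 15 H3 promoters and in none of the 6 H1 and 13 H4 promoters. The 250 bases before the start of the most abundant H2B and H2A members of HIST1 are shown, with the octamer and CCAAT on either strand, and TATAAA on the gene's strand, in capitals.
HIST1H2BK, chr6:27146859-27147108, minus strand: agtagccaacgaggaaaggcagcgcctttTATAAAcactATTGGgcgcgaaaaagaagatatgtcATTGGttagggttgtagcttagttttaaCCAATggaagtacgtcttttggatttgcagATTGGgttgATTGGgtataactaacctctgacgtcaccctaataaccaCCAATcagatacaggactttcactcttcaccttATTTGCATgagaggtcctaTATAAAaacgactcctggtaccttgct
HIST1H2AC, chr6:26123922-26124171, plus strand: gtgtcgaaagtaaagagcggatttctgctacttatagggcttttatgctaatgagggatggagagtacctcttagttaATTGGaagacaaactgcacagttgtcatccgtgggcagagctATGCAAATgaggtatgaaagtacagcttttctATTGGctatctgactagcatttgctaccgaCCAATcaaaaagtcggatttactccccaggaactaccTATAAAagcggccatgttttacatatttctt

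Depth, rebuilt from the values, ran from 16294010 to 34967594 reads per library, of which 80.1% to 83.2% lay in exons. The RPKM of MAPK14 was 14.4 for unstimulated wild-type cells and 13.3 and 14.8 with IL-1α, against 11.3 for unstimulated knockout cells and 11.0 and 7.41 with IL-1α. The knockout libraries were thus all below the wild-type ones, with a log2 difference under IL-1α of -0.61 (SE 0.22, limma adjusted p = 0.301), which checks the labels only in part. All 14 keratinocyte markers examined reached 1 RPKM, with a sum of 4112 to 7344 RPKM. Of the markers of other cells, 2 of 6 for fibroblasts (sum 0.805 to 2.59 RPKM), 1 of 5 for melanocytes (2.98 to 4.81 RPKM, chiefly MITF, with TYR at 0) and 1 of 6 for leukocytes (5.01 to 14.9 RPKM, chiefly CD68) did.

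Of the 74 histone genes, 21 (28.4%) reached 1 RPKM in at least 1 library, against 46.3% of the whole table and 58.9% of non-histone protein-coding genes. A further 39 had a value above 0 but below 1 RPKM throughout, and 14 were listed at 0 in every library. H2B (8 of 20) and H2A (7 of 18) supplied 15 of the 21. H3 gave 3 of 15, H4 2 of 15 and H1 1 of 6. The 3 pseudogenes did not reach the line, and neither did the 6 HIST2 genes annotated at 2 places, all of them listed at 0 (HIST2H2AA3, HIST2H2AA4, HIST2H3A, HIST2H3C, HIST2H4A and HIST2H4B). Whether reads matching both places were counted is not given in the sources used here.

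**Figure D1:**
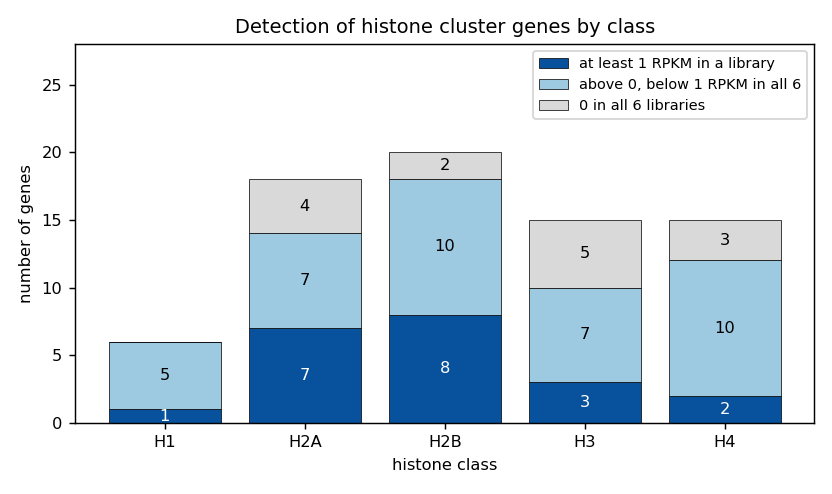
Number of histone cluster genes of each class (vertical axis, genes) that reached 1 RPKM in at least 1 library (dark blue), stayed above 0 and below 1 RPKM (light blue) or were listed at 0 in all 6 libraries (grey). The dark part holds 8 H2B and 7 H2A genes but 1 H1, 3 H3 and 2 H4 genes.

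HIST1H2AM (highest level 1.24 RPKM), HIST1H4E (1.28) and HIST3H2BB (1.47) lay just above the line. HIST1H4D (0.819), HIST1H2BL (0.797) and HIST1H3E (0.781) lay just below it. Of the 21 above it, 7 reached the line in the unstimulated wild-type library alone (HIST2H2AC, HIST1H2BG, HIST1H3D, HIST1H2AD, HIST3H2BB, HIST1H4E and HIST1H2AM) and HIST1H3G in knockout IL-1α replicate 2 alone. For these 8 the line itself fixed which library was highest. No gene below the line had more than 11 reads in a library, and 15 of the 21 above it had at most 50, so for most members the counting error alone is wide. The other 6 had 163 to 923 reads in their deepest library and made up 70.8% to 78.7% of the summed level of all 74 genes.

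Histone genes are close copies of one another. For 19 of the 21 with a member of equal coding length, the nearest coding sequence was 86.0% to 94.0% identical (median 90.1%). Reads may be shared among such copies, which makes the value of a single member uncertain.

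Summed over all 74 genes, unstimulated wild-type cells gave 164 RPKM and their IL-1α libraries 85.1 and 71.3 RPKM, which is 0.520 and 0.436 of the unstimulated value. In the knockout the sum was 92.1 RPKM unstimulated and 75.3 and 114 RPKM under IL-1α, or 0.818 and 1.24 of it. The unstimulated wild-type library thus stood above the other five, and the knockout replicates fell on opposite sides of their unstimulated library. In 16 of the 21 members above 1 RPKM the unstimulated wild-type library was also the highest of the 6, against 31.5% of all 12925 genes tested, though for 7 of the 16 the 1 RPKM line required it. The 5 exceptions were HIST1H2BK, HIST3H2A, HIST1H2BJ and HIST1H3G, highest in knockout IL-1α replicate 2, and HIST1H2AG, highest in the unstimulated knockout library. Among the 12 members with a mean of at least 1 RPKM over the 6 libraries, a choice made after the values were seen, it was the highest in 8, against 31.6% of the 12079 genes chosen in the same way. The unstimulated wild-type library was also the highest for 83.5% of 127 tested non-histone protein-coding genes of 352 to 581 bases. Among the 16 tested members in that range it was the highest for 12, so this order was not particular to histone genes. The part of transcript length in it was not tested. In bulk RNA, fewer cells in S phase and less histone RNA per cell cannot be told apart.

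**Figure D2:**
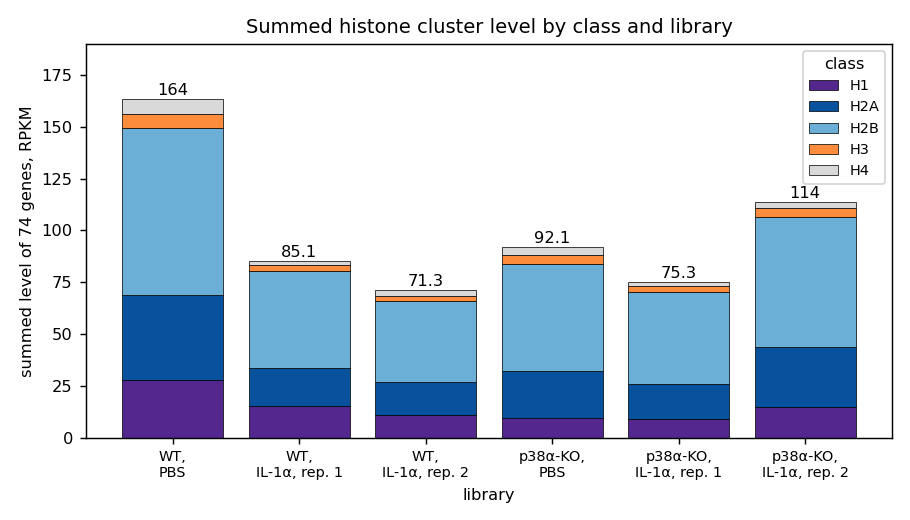
Summed level of the 74 histone cluster genes (vertical axis, RPKM) in each of the 6 libraries, stacked by class. The unstimulated (PBS) wild-type library reaches 164 RPKM, while the other five lie between 71.3 and 114 RPKM, with H2B the largest class in each.

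Linker histone H1 binds the DNA that enters and leaves the nucleosome. HIST1H1C (chr6:26055968-26056699 in hg19), which encodes the variant H1.2, was the only H1 gene above 1 RPKM. It stood at 26.7 RPKM in unstimulated wild-type cells, 14.8 and 9.92 in wild type under IL-1α, 9.02 in unstimulated knockout cells and 8.59 and 14.7 in knockout under IL-1α. Both IL-1α libraries of wild type lay below the unstimulated one, and those of the knockout lay on either side of theirs.

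H2B pairs with H2A in dimers that flank the tetramer of H3 and H4 in the nucleosome core. HIST1H2BK (chr6:27106072-27114637), the most abundant member, stood at 33.9 RPKM in unstimulated wild type, 23.5 and 20.0 under IL-1α, 26.6 in unstimulated knockout and 26.0 and 37.1 under IL-1α. Its gene span contains HIST1H4I. HIST1H2BD (chr6:26158349-26171576) gave 20.0, 10.8 and 8.67 RPKM for wild type and 10.3, 6.78 and 10.3 for the knockout, in the same order of libraries. Both had wild-type IL-1α values that lay below the unstimulated value.

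HIST2H2BE (chr1:149856010-149858232) had 7.0, 3.68 and 2.46 RPKM in wild type and 4.15, 3.25 and 3.25 in the knockout. HIST1H2BH (chr6:26251879-26252303) had 6.52, 1.45 and 1.41 RPKM in wild type and 1.08, 0.866 and 2.23 in the knockout, so its unstimulated wild-type value stood apart from the other five. HIST1H2BC had 3.29, 2.39 and 1.73 RPKM in wild type and 2.03, 1.57 and 1.93 in the knockout. HIST1H2BJ differed from these in that its unstimulated knockout value was no lower than that of wild type: 2.88, 1.80 and 1.13 RPKM in wild type, and 2.99, 2.2 and 3.37 in the knockout. HIST1H2BG had 1.63, 0.417 and 0.856 RPKM against 0.908, 0.829 and 0.990, and HIST3H2BB had 1.47, 0.820 and 0.601 against 0.764, 0.916 and 0.973. In HIST3H2BB both IL-1α values of the knockout lay above the unstimulated one, which held for no other member.

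Among the H2A genes, HIST1H2AC (chr6:26124373-26124918) and HIST3H2A (chr1:228645065-228645560) were the most abundant. For HIST1H2AC the wild-type values were 14.5, 4.97 and 5.07 RPKM and the knockout values 7.53, 5.55 and 10.1. For HIST3H2A they were 13.6, 7.97 and 6.02 RPKM and then 8.76, 6.30 and 14.1. In both genes the knockout IL-1α replicates lay on either side of the unstimulated knockout value.

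HIST1H2AE (chr6:26217148-26217711) had 4.58, 1.53 and 0.962 RPKM in wild type and 1.07, 1.14 and 0.898 in the knockout. HIST2H2AC had 1.93, 0.990 and 0.622 RPKM and then 0.461, 0.842 and 0.387. HIST1H2AG had 1.57, 0.496 and 1.09 RPKM and then 2.02, 1.29 and 0.882. Of the 20 members that reached 1 RPKM in an unstimulated library, it was 1 of 2 that were higher in the knockout there. HIST1H2AD, with 1.53, 0.484 and 0.426 RPKM and then 0.846, 0.541 and 0.795, shares its start with HIST1H3D and lies within that gene, so reads can belong to either. HIST1H2AM had 1.24, 0.634 and 0.892 RPKM and then 0.532, 0.944 and 0.347, from at most 10 reads.

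H3 and H4 form the tetramer at the centre of the nucleosome, and no gene of either class exceeded 5 RPKM. HIST1H4H (chr6:26285354-26285727) had the highest value of both classes, with 4.18, 0.330 and 1.16 RPKM in wild type and 1.38, 0.614 and 0.542 in the knockout. Those values rest on 26, 2 and 8 reads and on 18, 5 and 6 reads. HIST1H4E had 1.28, 0.656 and 0.866 RPKM against 0.612, 0.366 and 0.359, and was the only member with both knockout IL-1α values below both wild-type ones (16.3% of all genes). Its IL-1α values rest on 4 and 6 reads in wild type and on 3 and 4 in the knockout.

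HIST1H3H had 1.91, 0.522 and 0.574 RPKM in wild type and 1.10, 0.680 and 0.572 in the knockout. HIST1H3D had 1.57, 0.402 and 0.530 RPKM and then 0.561, 0.498 and 0.769. HIST1H3G ran the other way: it was lowest in the wild-type libraries (0.643, 0.528 and 0.464 RPKM) and stood at 0.923, 0.786 and 1.81 in the knockout. It passed the 1 RPKM line through knockout IL-1α replicate 2 alone.

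**Figure D3:**
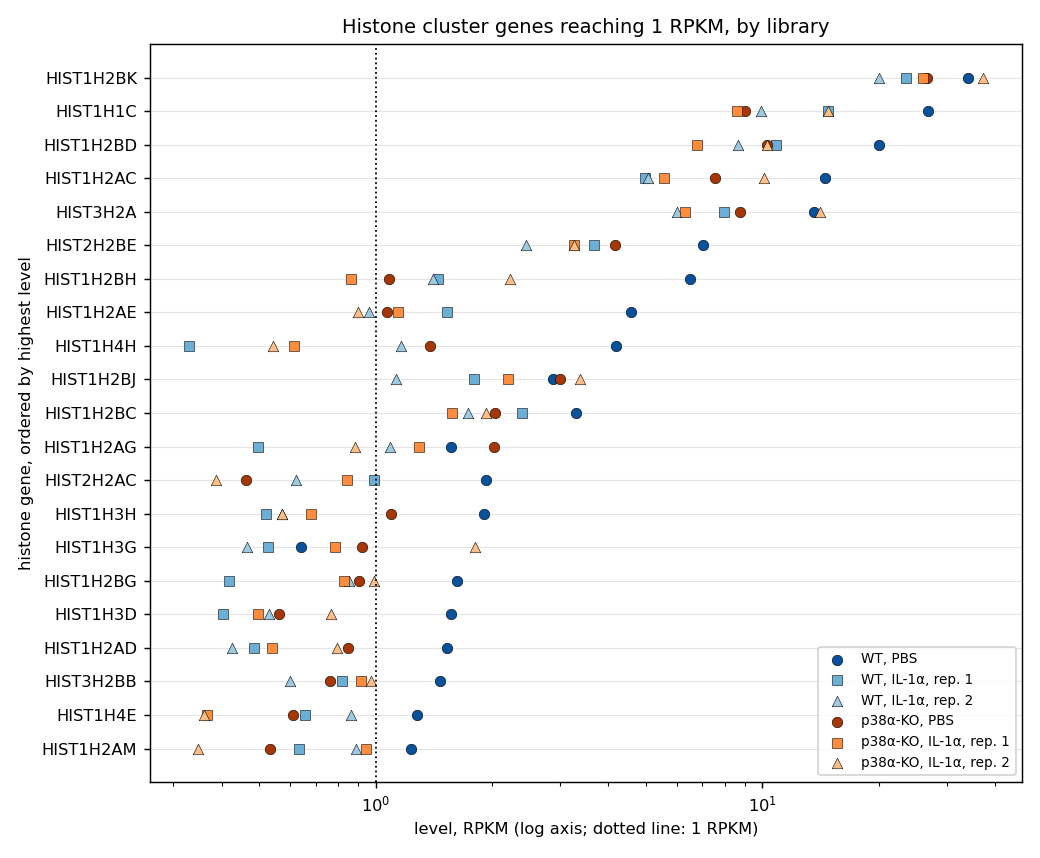
Level of the 21 histone cluster genes that reached 1 RPKM (horizontal log axis, RPKM) in each library, blue for wild type (WT) and orange for p38α-knockout (KO), with circles for PBS and squares and triangles for IL-1α replicates 1 and 2. The dark blue circle of the unstimulated wild-type library lies farthest right in 16 of the 21 genes.

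H2A and H2B genes often share 1 promoter region and are read in opposite directions. Among the members, 11 such head-to-head pairs of an H2A and an H2B gene within 1000 bases were listed, with 240 to 347 bases between their starts. This list is not complete. It leaves out HIST1H2BK and HIST1H2AH, also head to head within 1000 bases, with 33.9 and 0.25 RPKM in unstimulated wild-type cells. HIST1H3D, which shares its start with HIST1H2AD, also faces HIST1H2BF. In 5 of the 11 listed pairs both genes reached 1 RPKM, in 2 pairs one gene did, and in 4 neither. The partners were not equally abundant: in unstimulated wild-type cells HIST3H2A had 13.6 RPKM beside 1.47 for HIST3H2BB, and HIST1H2AC had 14.5 beside 3.29 for HIST1H2BC. The more abundant partner was H2B in the pairs of HIST2H2BE with HIST2H2AC and of HIST1H2BJ with HIST1H2AG. In all 5 pairs, both partners were lower in both wild-type IL-1α libraries than in the unstimulated one. That order held for all 21 members above 1 RPKM and for 54.3% of all genes tested, so it is not particular to the pairs. HIST3H2BB, HIST2H2AC and HIST1H2BG reached 1 RPKM in the unstimulated wild-type library alone, so for them the line itself fixed this order.

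Responses to IL-1α were tested with limma on log2(RPKM + 0.5) over the 12925 genes that reached 1 RPKM in at least 1 library, so that a log2 difference understates the change of low genes. In wild type, no histone member passed a Benjamini-Hochberg adjusted p of 0.05 (0.217% of all genes did), nor did any with voom on the rebuilt reads in this or the other comparisons, and the adjusted p of the 21 members tested ran from 0.133 to 0.832. All 21 had a log2 difference below 0 (63% of all genes did), from -1.99 to -0.20, with a median of -0.93 beside -0.14 for all genes. This count is not independent of the 1 RPKM line, which 7 of the 21 passed through the unstimulated library alone. With no line, 47 of the 60 members with any value were below 0 and 13 above, beside 55.5% of all genes below 0, and the median was -0.50. Of the 12 members with a mean of at least 1 RPKM, all had a difference below 0, as had 62.6% of genes chosen in the same way, with a median of -1.05. Both IL-1α libraries lay below the unstimulated library for all 21, against 54.3% of all genes. At an unadjusted p under 0.05, 11 members were lower, against 13.4% of all genes, and 3 with the length trend described below removed. Every one of these values rests on the same unstimulated library.

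The largest differences in wild type belonged to 1 H4, 1 H2B and 2 H2A genes. HIST1H4H had a log2 difference of -1.99 (SE 0.45, limma adjusted p = 0.144), between 4.18 RPKM unstimulated and 0.745 ± 0.587 under IL-1α (SD, n = 2). HIST1H2BH had -1.86 (SE 0.43, adjusted p = 0.144), with 1.43 ± 0.0339 RPKM under IL-1α. HIST1H2AE had -1.56 (SE 0.33, adjusted p = 0.133) and HIST1H2AC -1.45 (SE 0.34, adjusted p = 0.149), with 1.25 ± 0.403 and 5.02 ± 0.0665 RPKM under IL-1α. By class the median difference was -0.92 for 7 H2A genes, -0.87 for 8 H2B genes and -1.10 for 3 H3 genes. It was -0.93 for the 12 genes with an extended transcript past the stem-loop and -1.01 for the other 9.

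In the knockout, no histone member passed either (0.0696% of all genes did), the adjusted p was 1 for all 21, and none had an unadjusted p under 0.05 (3.58% of all genes did). The median log2 difference was -0.00, beside -0.02 for all genes, with 12 members below 0 (52.8% of all genes) and 9 above. HIST1H4H (-0.81, SE 0.45), HIST1H2AG (-0.68, SE 0.39), HIST1H3H (-0.50, SE 0.31) and HIST1H4E (-0.37, SE 0.33) had the largest differences. Both IL-1α libraries lay below the unstimulated one in 7 members (36.4% of all genes) and above it in 1 (27.8% of all genes). The balance depended on 1 library: without knockout IL-1α replicate 2, 17 members lay below 0 with a median of -0.29, and without replicate 1 the median was 0.00 with 10 below 0.

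Whether the response depended on the genotype was tested as the difference of both responses. No member passed (0% of all genes did), with adjusted p of 0.966 to 0.997. All 21 differences were above 0 (39.6% of all genes were below 0), meaning a higher IL-1α to PBS ratio in the knockout, with a median log2 value of 0.88 beside 0.10 for all genes, and 20 of 21 were after median-of-ratios rescaling. This count is not independent of the 1 RPKM line, which 7 of the 21 passed through the unstimulated wild-type library alone. With no line, 46 members were above 0 and 14 below, beside 43.5% of all genes below 0. Of the 127 tested non-histone protein-coding genes of 352 to 581 bases, 6.3% were below 0. Among the 21 members, the 4 with an unadjusted p under 0.05, against 4.39% of all genes, were HIST1H2BH (2.15, SE 0.61), HIST1H2AE (1.51, SE 0.46), HIST1H2AC (1.44, SE 0.49) and HIST1H1C (1.41, SE 0.53), each with a limma adjusted p of 0.966. That count of 4 was 11 without knockout IL-1α replicate 1 and 1 without either wild-type replicate, and was 0 with the length trend removed. Both responses enter with their own unstimulated library, of which there is 1 per genotype.

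Under IL-1α, no member separated knockout from wild type by the adjusted test (0.155% of all genes did), with adjusted p of 0.319 to 1. The median log2 difference was 0.10, beside 0.09 for all genes, with 13 members above 0 and 8 below (39% of all genes). Both knockout libraries lay above both wild-type libraries for 6 members (32.4% of all genes): HIST1H2BK, HIST1H2AC, HIST1H2BJ, HIST1H3G, HIST1H2AD and HIST3H2BB. The largest differences were 0.79 for HIST1H3G (SE 0.35, limma adjusted p = 0.356), 0.74 for HIST1H2BJ (SE 0.29, adjusted p = 0.319), -0.54 for HIST1H4E (SE 0.27, adjusted p = 0.398) and 0.54 for HIST1H2AC (SE 0.28, adjusted p = 0.421). HIST1H2BJ alone had an unadjusted p under 0.05 (14.9% of all genes did), at 2.79 ± 0.831 RPKM in the knockout and 1.46 ± 0.472 in wild type (SD, n = 2 each). Without knockout IL-1α replicate 1 the median was 0.27 and 5 members had an unadjusted p under 0.05.

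Without stimulation each genotype had 1 library, so this comparison has no test. Of the 20 members that reached 1 RPKM in either of these libraries, 18 were lower in the knockout, with a median log2 ratio of -0.94 beside -0.02 for all genes. Of 127 tested non-histone protein-coding genes of 352 to 581 bases, 83.5% stood highest of all 6 libraries in the unstimulated wild-type one. Those short genes were thus also lower in the unstimulated knockout. At least 2-fold lower were 8 members, against 5.62% of all genes, and 0 were at least 2-fold higher, against 4.12%. All 20 reached 1 RPKM in the wild-type library, so the choice of genes favoured lower knockout values, and HIST2H2AC, HIST1H3D, HIST1H2AM and HIST1H4E among the 8 reached it in no other library. Among the 12 members with a mean of at least 1 RPKM over the 6 libraries, 10 were lower in the knockout and 4 at least 2-fold lower, against 4.77% of genes chosen in the same way, with a median log2 ratio of -0.85. HIST1H2BH had 0.166 of the wild-type level (exact 95% interval 0.0879 to 0.299), HIST1H2AE 0.234 (0.132 to 0.402) and HIST1H1C 0.337 (0.284 to 0.401). These intervals come from the rebuilt reads and cover counting error only.

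The remaining 2-fold lower members were HIST2H2AC (0.239), HIST1H4H (0.331), HIST1H3D (0.358), HIST1H2AM (0.431) and HIST1H4E (0.478). The intervals of HIST1H2AM (0.155 to 1.18) and HIST1H4E (0.157 to 1.46) include 1. HIST1H2BK was nearest to equality among the abundant genes, at 0.783 (0.698 to 0.880, from 474 and 776 reads). Of the 20 members compared, HIST1H2BJ (1.04) and HIST1H2AG (1.29) were the 2 above 1. This comparison, the wild-type response and the interaction all share the unstimulated wild-type library, the one in which the members stood highest, and their values are not independent of each other.

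Histone mRNAs are short, so they were set beside non-histone protein-coding genes of similar annotated length. That length is the one of the deposited table and can be shorter than a form that runs past the stem-loop. HIST1H2BH is given 422 bases there, while an annotated transcript ran 1640 bases past its stem-loop, but HIST2H2BE is given 2220. Of the 21 members tested, 12 had such an extended transcript. Which form was captured was not tested, so the matching may not use the length of the captured RNA. The 63 members under 700 bases spanned 352 to 581 bases. Of these, 16 reached 1 RPKM (25.4%, exact 95% interval 15.3 to 37.9), and of 395 comparison genes in the same range 127 did (32.2%). Above the line the levels were far apart, with a median of 1.08 RPKM for the members and 62.3 for the comparison genes (104 for those within 10% of the members' median length). Over all genes of this range, above the line or not, the order was the reverse, with medians of 0.190 RPKM for the members and 0.0202 for the comparison genes. Of the 11 members of 722 to 2620 bases 5 reached 1 RPKM (45.5%, interval 16.7 to 76.6), against 53.6% of 9090 comparison genes, with medians of 11.1 and 13.6 RPKM above the line (22.5 within 10% of their median length).

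The comparison genes of 352 to 581 bases also had lower values under IL-1α in wild type. Their median log2 difference was -0.73, beside -0.92 for the 16 short members, and 115 of 127 were below 0. Both IL-1α libraries lay below the unstimulated one for 110 of the 127 (86.6%), and the unstimulated wild-type library was the highest of the 6 for 83.5% of them, against 12 of 16 short members. For the 5 longer members the median was -1.09, against -0.31 for comparison genes of their range and -0.64 for the 242 tested genes within 10% of their median length. Interaction medians were 0.89 for short members and 0.73 for their comparison genes, and 0.86 and 0.25 for the longer ones, or 0.56 for genes within 10% of their median length. In knockout against wild type under IL-1α the short members had a median of 0.18 and their comparison genes -0.12, with 86 of 127 below 0.

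Over all non-histone protein-coding genes, the median wild-type difference went from -0.73 at 352 to 581 bases through -0.35 at 1000 to 2000 bases to 0.13 above 5000 bases. In the knockout the same medians stayed between -0.04 and 0.04. With this length trend subtracted at the lengths of the deposited table, the median of the 21 members in wild type was -0.26, with 17 below 0 and 4 above. The interaction median was then 0.29, with 16 above 0 and 5 below. After the subtraction HIST1H4H stood at -1.27, HIST1H2BH at -1.16, HIST1H2AE at -0.93, HIST2H2BE at -0.89 and HIST1H2AC at -0.81, while HIST1H2BK stood at -0.11 and HIST3H2BB at -0.02. The wild-type differences of genes in general thus moved with transcript length, and what lies behind that trend was not tested.

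**Figure D4:**
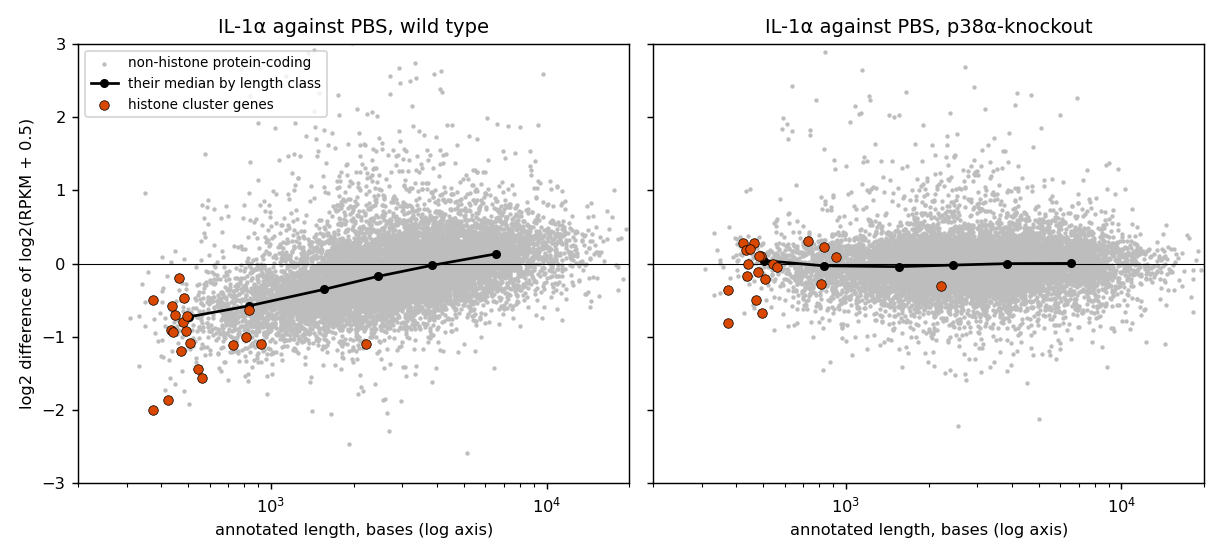
Log2 difference between IL-1α and PBS (vertical axis, on log2(RPKM + 0.5)) against annotated length in bases (horizontal log axis) in wild type (left) and p38α-knockout (right). Grey points are 11409 non-histone protein-coding genes, of which 30 (left) and 19 (right) lie outside the axes, black points their medians by length class, and orange points the 21 histone cluster genes. The black line climbs from -0.73 to 0.13 in wild type and stays near 0 in the knockout.

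Genes that act with the cluster histones were read from the same fit, and none of the 140 tested passed in any of the 4 comparisons, by limma or by voom. At an unadjusted p under 0.05 there were 27 in the wild-type response (19.3%, against 18.1% of all genes) and 1 in that of the knockout (0.714%, against 3.58%). Between the genotypes under IL-1α there were 42 (30%, against 14.9%), and in the interaction 5 (3.57%, against 4.39%). For the direction counts of the lists, 63% of all genes were below 0 in the wild-type response. In knockout against wild type under IL-1α, 39% of all genes were. The genes listed as replication-independent histone variants had the lowest wild-type median of these lists. In wild type all 12 were below 0 with a median log2 difference of -0.72, and under IL-1α all 12 were above 0 in knockout against wild type, with a median of 0.25. H2AFZ, which encodes H2A.Z, had 252 RPKM in unstimulated wild type, 132 and 117 under IL-1α, 164 in unstimulated knockout and 152 and 227 under IL-1α, with a wild-type log2 difference of -1.02 (SE 0.28, limma adjusted p = 0.172). It was highest in the unstimulated wild-type library, with the knockout replicates on either side of 164 RPKM. H3F3B, which encodes H3.3, differed by -0.27 in wild type (SE 0.20), and H2AFY2, a macroH2A gene, by -1.04 (SE 0.21, adjusted p = 0.128).

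Factors that make and mature histone mRNA had a median near 0 in wild type (-0.06 over 22 genes, 15 below 0). SLBP, which binds the stem-loop, belongs to this list. Its most abundant members, the cap-binding protein gene NCBP2 and SRRT, had log2 differences of 0.12 and 0.19. E2F1, a transcription factor of S-phase entry, had -0.88 (SE 0.22, limma adjusted p = 0.155), and LSM10, a subunit of the U7 particle that cuts histone pre-mRNA, had -0.73 (SE 0.24, adjusted p = 0.209). Histone mRNA degradation genes had a median of 0.04 (4 of 11 below 0), with XRN2 at -0.07, PRKDC at 0.01, DIS3L at -0.68 and SMG1 at 0.31. Chaperones, which hand histones to DNA, had -0.11 (12 of 17 below 0), with SSRP1 at -0.04, NAP1L1 at -0.05, ASF1B at -0.67 and ASF1A at -0.64.

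S-phase replication genes had a median of -0.41 in wild type, with 36 of 38 below 0, and of 0.53 in knockout against wild type under IL-1α, with 36 of 38 above 0. PCNA, the sliding clamp of DNA polymerase, had 312 RPKM in unstimulated wild type, 202 and 191 under IL-1α, 284 in unstimulated knockout and 281 and 262 under IL-1α. Its wild-type log2 difference was -0.67 (SE 0.20, limma adjusted p = 0.188), and for the helicase subunit genes MCM7 and MCM6 it was -0.40 and -0.88, and for GINS2 -0.85. All 3 knockout values of PCNA thus lay above both wild-type IL-1α values and below the unstimulated wild-type value. G2 and mitosis genes had a median of -0.15 in wild type (12 of 20 below 0), near that of all genes (-0.14, with 63% below 0). TOP2A stood at -0.18, CCNB1 at -0.48, CDC20 at -0.56 and CCNB2 at -0.74. In knockout against wild type under IL-1α the median of the G2 and mitosis genes was 0.42 (20 of 20 above 0), beside 0.09 for all genes. The part of cell-cycle position in the histone values was not tested.

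Polyadenylation genes, including the poly(A)-binding protein gene PABPC1, had a median of -0.01 in wild type (8 of 15 below 0), with PABPC1 at 0.33, PABPN1 at 0.02, FIP1L1 at 0.44 and CPSF4 at -0.43. RNAs that lack a poly(A) tail, such as RNA components of enzymes and guide RNAs, were read beside the histones as others that the kit should not select. Of 34 named, 20 were in the table and 5 reached 1 RPKM. Short non-histone protein-coding genes, of 352 to 581 bases, had a wild-type median of -0.73. The 5 RNAs, of 204 to 340 bases, were all below 0 in wild type, with a median of -0.50. Their summed level, over the 20, was 26.3 RPKM in unstimulated wild type, 17.3 and 14.0 under IL-1α, 11.2 in unstimulated knockout and 13.6 and 16.2 under IL-1α, again highest in the unstimulated wild-type library. RPPH1, the RNA of RNase P, had 7.74, 3.61 and 1.75 RPKM in wild type and 1.26, 3.90 and 0.988 in the knockout, with a wild-type difference of -1.44 (SE 0.67), while RMRP differed by -0.86 (SE 0.36), SNORA73B by -0.50 and SCARNA12 by -0.39. The part of the poly(A) selection step in the histone values was not tested.

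**Figure D5:**
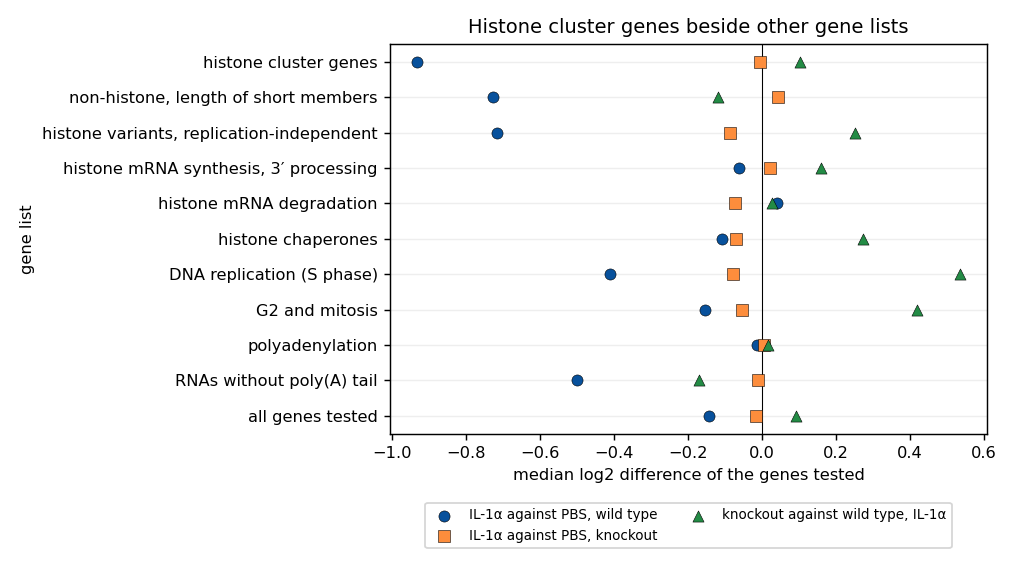
Median log2 difference (horizontal axis, on log2(RPKM + 0.5)) of the tested genes of each list (vertical axis), for IL-1α against PBS in wild type (blue circles) and knockout (orange squares) and for knockout against wild type under IL-1α (green triangles). The cluster histones lie at -0.93 in wild type, next to short non-histone genes (-0.73) and histone variants (-0.72), and S-phase genes lie at -0.41.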

How the data were processed

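Poly(A) RNA of 6 HaCaT libraries was sequenced from a stranded mRNA kit, per the labels' protocols. Per the submitters' processing notes, bcl2fastq (2.20.0.422), STAR and HOMER were used with hg19, the last 2 without stated versions. The deposited table, made by the authors with HOMER in exon-counting mode per the file headers, gives RPKM (also written FPKM there) for 27945 genes, with each gene's length and number of annotated places. Whether counting used strand is not given in the sources used here, and values were used as deposited.

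Depth was rebuilt as the read number that makes values of 0.02 to 1 RPKM whole. Between 98.0% and 99.8% of those values were whole within 0.1 read. Rebuilt reads served for counting intervals (exact conditional binomial) and for voom. Genes with at least 1 RPKM in 1 library (12925) entered 1 limma fit (limma 3.58.1, R 4.3.3) on log2(RPKM + 0.5). Each group had a coefficient, the variance prior followed the mean, and p-values were adjusted over all genes by Benjamini-Hochberg, with 0.05 as threshold. The spread came from the 2 replicated groups (2 residual and 4.2 prior degrees of freedom). The fit was tested on simulated data that had no length trend and changes only in genes of higher level. That test therefore does not speak for members with few reads.

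Members reaching 1 RPKM are given by library. For each comparison, those that pass and the 4 with the largest absolute change are named, and of each list the 2 most abundant and the 2 with the largest wild-type change. The histone members, lists and tests were chosen with earlier results of these data known. Alternatives were 2 other pseudocounts (0.1 and 1), no filter, median-of-ratios rescaling, no variance trend, subtraction of a length trend (loess, span 0.5), voom, a replicate block and leaving out each IL-1α library. Coordinates of genes are those of the deposited table (hg19), and sequences come from RefSeq (GRCh38.p14) and GENCODE release 29. Tables were handled in Python 3.11.15 with pandas 2.3.3 and scipy 1.17.1.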

Additional observations from a re-analysis of the deposited data

Results flagged for a closer look

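HIST3H2BB, an H2B gene of the HIST3 locus, moved in opposite directions in the 2 genotypes: both wild-type IL-1α libraries (0.820 and 0.601 RPKM) lay below the unstimulated one (1.47), and both knockout IL-1α libraries (0.916 and 0.973 RPKM) lay above theirs (0.764). The interaction was 0.90 on the log2(RPKM + 0.5) scale (SE 0.44), with a limma adjusted p of 0.966, so the difference did not pass the test. The 6 values rest on 5 to 13 reads each.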

How the results depend on the processing

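In wild type, the median log2 difference of the members was -1.13 with a pseudocount of 0.1, -0.50 with no filter on low values (60 members) and -0.26 with the length trend removed, and -1.11 to -0.84 when an IL-1α library was left out. With no filter 1 member passed, HIST1H2AH (-0.58, adjusted p = 0.0409), which had 0.25 and 0.179 RPKM in the unstimulated libraries and 0 in the other four. No other setting called a member in any comparison. Rescaling by median of ratios moved the wild-type median of all genes by 0.13, and the members then stood at -0.84 with all 21 below 0. In the knockout the median, -0.0049, changed sign with median of ratios (0.0090), the length trend removed (0.042), voom (0.027) and without replicate 1 (0.00067), and was -0.29 without replicate 2. Knockout against wild type under IL-1α gave 0.067 to 0.27 with a library left out. The interaction median was 1.07 and 0.71 with pseudocounts of 0.1 and 1, 0.34 with no filter, 0.29 with the length trend removed, 1.08 with voom and 0.77 to 1.01 with a library left out. Causes were not tested. With a replicate block the median of knockout against wild type under IL-1α was 0.10 and 0 members passed, while calls over all genes went from 20 to 58. Nothing shows that equal numbers pair the libraries (correlation of the replicate differences across genes 0.0086).

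Unstimulated members at least 2-fold apart were 15 with a minimum of 0.5 RPKM, 5 on the log2(RPKM + 0.5) scale and 4 among members with a mean of 1 RPKM (chosen after seeing the data), against 8. Members detected were 37 at 0.5 RPKM, 12 at 2 RPKM and 8 at 1 RPKM in all 6 libraries, against 21. The median level of short comparison genes was 0.0202 RPKM over all and 62.3 over those reaching 1 RPKM, against 0.190 and 1.08 for the short members. Each genotype had 1 unstimulated library, and 15 of the 21 members had at most 50 reads in any library.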

Other observations

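The 53 histone genes below 1 RPKM were not tested. Together they held 92 reads in unstimulated wild-type cells and 44 and 54 with IL-1α, and 138 in unstimulated knockout cells and 49 and 99 with IL-1α. Their summed level was 11.5, 5.84 and 5.92 RPKM for wild type and 8.50, 4.75 and 7.39 RPKM for the knockout. The unstimulated library was the highest of each genotype here too, unlike the sum over all 74 genes in the knockout, where IL-1α replicate 2 was highest.

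Within the replicated groups, 14 of the 21 tested members were higher in knockout IL-1α replicate 2 than in replicate 1 (66.7%, against 52.2% of all genes). In wild type, 8 of 21 were higher in replicate 2, while 9 of the 127 short non-histone genes were (7.09%, against 50.8% of all genes).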
